A study of Mus musculus with 2 samples.

Results

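The expression of 8 genes for matricellular and related matrix proteins was described in single cells of young mouse long bone: Sparc, Sparcl1, Thbs1, Thbs2, Tnc, Postn, Fn1 and Vcan. The members were taken by gene symbol, with earlier results of these data known, and all 8 were found in both libraries among 28380 genes listed in the tables. The cells came from femur and tibia of C57BL/6 mice at postnatal day 30, after bone was freed of muscle and epiphysis, digested and depleted of blood cells, and were read on the BD Rhapsody system, which tags each captured RNA molecule with a unique molecular identifier (UMI). There were 2 libraries, 1 for each genotype, and each pooled male and female mice, with 2 mice per genotype by the methods of the paper. Control mice carried the Dach1OE +/f allele, a Dach1 transgene that stays silent without Cre. Dach1OE mice carried the same allele together with Apj CreERT2, a tamoxifen-dependent Cre recombinase driven by the gene for the apelin receptor (Aplnr, also called Apj). Mice of both genotypes received tamoxifen. Several properties limit the mutant as a model: its Cre acts in Aplnr-expressing capillary endothelium and the cells that arise from it, the animals of a genotype were pooled, and the depletion of lineage-positive, CD45+ and CD117+ cells set which cells were left.

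Matricellular proteins are secreted into the extracellular matrix, where they act less as scaffold than as modulators of how cells attach to the matrix, sense growth factors and move. Many of them are abundant during growth, repair and remodelling, and in bone they are known from mineralising matrix, periosteum, tendon and vessel walls. SPARC (osteonectin) and its relative SPARCL1 (hevin) bind collagen, the thrombospondins THBS1 and THBS2 bind CD36 and CD47 and restrain angiogenesis, tenascin-C and periostin mark matrix under remodelling or load, fibronectin is a fibril-forming adhesive glycoprotein bound by integrins, and versican is a large proteoglycan that binds hyaluronan.

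After removal of cells with fewer than 500 or more than 6000 detected genes or with 25% or more mitochondrial UMIs, 26466 cells of Control and 29317 cells of Dach1OE were left, with medians of 3793.5 and 4055 UMIs. The libraries shared 1049 cell barcodes. Cells were placed in a class by the markers they held: 9225 and 9408 cells (Control and Dach1OE, in this order throughout) were endothelial-like, 5660 and 4323 stromal-like, 1008 and 1939 mural-like (smooth muscle and pericytes) and 4197 and 5843 chondrocyte-like, and 12.3% and 15.3% of the cells were left without a class. Dach1, the gene of the transgene, gave 5.0 counts per 1000000 UMIs (CPM) in endothelial cells of Control and 193 CPM in those of Dach1OE, with a Dach1 UMI in 1.62% and 38.4% of them. In stromal cells it gave 3.50 CPM (2.81 to 4.32) and 4.54 CPM (3.71 to 5.50), in mural cells 3.72 CPM (1.78 to 6.84) and 12.6 CPM (9.55 to 16.3), and in chondrocytes 2.66 CPM (2.19 to 3.19) and 5.14 CPM (4.58 to 5.76).

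Levels are CPM, the UMIs of a gene divided by all UMIs of the cells of a class or subtype. Since there was 1 library per genotype, no difference was tested. Intervals are 95% intervals of counting error (exact Poisson for levels, exact conditional binomial for ratios, Clopper-Pearson for shares), and neither the spread between animals nor between libraries is known. Those of levels and ratios treat each UMI as independent and leave out the spread between cells. UMIs were counted at the 3′ end and not per length, so levels were not compared between genes. In such data free RNA gives UMIs in cells that do not express a gene. A member was therefore read as above free RNA in a group of cells only where its share of cells with a UMI, at 1000 UMIs per cell, lay above that of erythroid-like and basophil-like cells of the same library, which should lack matrix genes, beyond the intervals of both. The subtypes below are cells within a class that a set of further markers favoured. Of these markers, all had their highest level in the subtype they name in most subtypes, and the osteoblast, osteocyte, metaphyseal stromal, prehypertrophic and myeloid sets were the exceptions. In osteoblast-like cells 4 of 6 and 3 of 6 markers did so. The gate used the same markers, so this is no test of the subtype names.

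Sparc was found above free RNA in all 17 subtypes of both libraries. Its level was 36374 CPM (36299 to 36449) and 48184 CPM (48095 to 48274) in stromal cells and 35794 and 32764 CPM in chondrocytes, against 11333 and 10386 CPM in endothelial cells and 9180.3 and 8146 CPM in mural cells. Osteoblast-like cells stood highest, with 65343 CPM (65191 to 65496) in Control and 68405 CPM (68268 to 68541) in Dach1OE. The few osteocyte-like cells (34 and 42) held as much, with 66349.7 and 68919 CPM. Upper growth plate chondrocytes followed with 49694 and 42267 CPM, then the other chondrocyte subtypes between 27085 and 35796 CPM. At the other end stood type R endothelial cells of Control with 5230.0 CPM, followed by smooth muscle cells with 6703 CPM, and in Dach1OE smooth muscle cells with 6485 CPM, where type R cells held 11704 CPM. The highest level was 12.5 times the lowest in Control and 10.5 times in Dach1OE, the narrowest range of the members. Only a few neighbours in the order could not be separated within counting error, such as pericytes and arterial endothelial cells of Control (14405 and 14309 CPM). Free RNA of Sparc was widespread: at 1000 UMIs, 42.3% and 50.3% of basophil-like cells had a Sparc UMI, against 94.6% or more of cells in every non-cycling subtype of the 4 classes. Blood cells, among them those that set this reference, gave 1743 and 2245 CPM of Sparc. The median blood cell held 2.96 and 3.71 Sparc UMIs per 10000, and 10 cells held 22.5% and 19.4% of the UMIs. The source of these UMIs was not tested.

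Sparcl1 was highest in cells of the vessel wall. Mural cells held 2778 CPM (2715 to 2842) in Control and 2792 CPM (2744 to 2840.2) in Dach1OE, within them smooth muscle cells 4112 and 4190.0 CPM and pericytes 791 and 969 CPM. At 1000 UMIs, 89.9% and 92.9% of smooth muscle cells had a Sparcl1 UMI. Among endothelial cells, type R cells (as gated above) held 1248 and 1338 CPM and arterial cells 843 and 1019 CPM. In Control, fibroblasts (919.9 CPM), arterial cells and pericytes (791 CPM) followed each other in the order, and each overlapped with the next within counting error. Metaphyseal endothelial cells held 277 and 446 CPM. Osteoblasts stood lowest of the 17 subtypes with 7.38 and 8.81 CPM, so the highest level was 557 and 476 times the lowest. In osteoblasts, diaphyseal and metaphyseal stromal cells and septoclasts Sparcl1 was not above free RNA. Sparc and Sparcl1 therefore peaked in different cells, and across subtypes, blood subtypes included, their profiles had Pearson correlations of 0.12 and -0.04.

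Of the 4 classes, chondrocytes held the most Thbs1. Its class level was 875 CPM (866 to 884) and 821 CPM (814 to 828) in chondrocytes, 250.3 and 291 CPM in stromal cells, 206 and 172 CPM in mural cells and 41.8 and 35.2 CPM in endothelial cells. Upper growth plate chondrocytes (1268 and 1069 CPM) and prehypertrophic chondrocytes (1109 and 1132 CPM) exchanged places between the libraries. Hypertrophic chondrocytes held 296.5 and 238 CPM, and osteoblasts 409.8 and 407 CPM. Of the endothelial subtypes only type R cells were above free RNA for Thbs1 in both libraries, with a UMI in 10.7% and 10% of thinned cells, at 139.9 and 87.3 CPM. Outside the 4 classes, megakaryocyte-like cells held 1113 and 1205 CPM, with a UMI in 44.4% and 51.2% of thinned cells. Platelets, which megakaryocytes release, are a known store of thrombospondin-1.

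Thbs2 was low in every class, and its counts were small. Stromal cells held 88.3 CPM (84.7 to 92.1) and 81.4 CPM (77.8 to 85.2), mural cells 77.3 and 78.1 CPM, endothelial cells 13.8 and 10.2 CPM and chondrocytes 12.2 and 13.0 CPM. Fibroblasts led with 216 and 222 CPM, followed by metaphyseal stromal cells (183 and 199.8 CPM) and pericytes (178 and 151 CPM). In Control these 3 neighbours overlapped pairwise, and in Dach1OE pericytes lay below the other two. Pericytes held more than smooth muscle cells, where Thbs2 gave 30.1 and 37.7 CPM. Osteocyte-like cells reached 221 and 250.2 CPM, on 50 and 68 UMIs. Where Thbs1 was high, in growth plate chondrocytes, Thbs2 gave 17.3 and 15.1 CPM or less except in hypertrophic cells (62.2 and 57.9 CPM). Both thrombospondins can bind CD36 and CD47, yet their profiles across subtypes, blood subtypes included, had correlations of only 0.05 in each library. Megakaryocyte-like cells, high in Thbs1 and counted among these subtypes, held 4.23 and 7.25 CPM of Thbs2.

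Tnc was highest in stromal cells. Stromal cells held 2071 CPM (2053 to 2089) and 1383 CPM (1368 to 1398), against 72.4 and 55.7 CPM in endothelial cells, 81.8 and 80.5 CPM in mural cells and 42.1 and 39.5 CPM in chondrocytes. Metaphyseal stromal cells stood highest with 7219 CPM (7091 to 7348) and 7198 CPM (7039 to 7359), with a UMI in 96.4% and 96.9% of thinned cells. Septoclasts, the matrix-degrading cells at the edge of the growth plate, followed with 4114 and 3009.5 CPM, and diaphyseal marrow stromal cells with 2629 and 2618 CPM. Osteoblasts held 457 and 329.7 CPM. The order of the first 4 subtypes was the same in both libraries with no overlap between neighbours. In the 5 endothelial subtypes Tnc was not above free RNA in either library. Its levels there ran from 46.9 to 118.9 CPM, and blood cells held 51.7 and 47.9 CPM.

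Postn and Vcan were highest in fibroblasts and metaphyseal stromal cells. Postn, the gene of periostin, gave 258 CPM (252 to 265) and 214 CPM (208 to 219.5) in stromal cells, 213 and 143 CPM in mural cells, 15.4 and 16.2 CPM in endothelial cells and 15.6 and 9.0 CPM in chondrocytes. Fibroblasts, a set gated with periosteal and tendon markers, held 1262 CPM (1206 to 1319) and 1292 CPM (1228 to 1358) of Postn, and metaphyseal stromal cells 777 and 801 CPM. Pericytes held 435 and 302 CPM, and smooth muscle cells 94.0 and 55.4 CPM. Pericytes and proliferating stromal cells overlapped within counting error in both libraries. In all endothelial and all chondrocyte subtypes Postn was not above free RNA. Vcan gave 214 CPM (209 to 220.1) and 208 CPM (202 to 214) in stromal cells, 31.6 and 16.5 CPM in mural cells, 11.6 and 10.6 CPM in endothelial cells and 6.18 and 7.55 CPM in chondrocytes. Metaphyseal stromal cells (1015 and 1106 CPM) and fibroblasts (822 and 1004 CPM) led and overlapped in Dach1OE, and septoclasts followed with 582 and 708 CPM. Type R cells were the only endothelial subtype above free RNA for Vcan, with a UMI in 5.99% and 4.62% of thinned cells. Their level, 81.4 CPM (63.6 to 103) and 57.4 CPM (42.0 to 76.6), rested on 71 and 46 UMIs, of which 10 cells held 40.8% and 76.1%. Of those in Dach1OE, 42 came from 177 cells without a Dach1 UMI and 4 from 88 cells with one.

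Fn1, the gene of fibronectin, was shared between cartilage and fibrous tissue. Chondrocytes held 1889.7 CPM (1877 to 1903) and 2095 CPM (2083 to 2106), stromal cells 1063 and 1054 CPM, mural cells 405 and 341 CPM and endothelial cells 136 and 208 CPM. Hypertrophic chondrocytes, with 8391 CPM (8242 to 8542) and 8588 CPM (8473 to 8705), and fibroblasts, with 8301 CPM (8156 to 8447) and 9595 CPM (9420.3 to 9771), took the first places. They overlapped in Control, and fibroblasts stood above in Dach1OE. Upper growth plate chondrocytes held 2194 and 1994 CPM and prehypertrophic chondrocytes 1248 and 1356 CPM. Arterial cells led the endothelial subtypes with 671 and 618 CPM, with a UMI in 40.2% and 40.7% of thinned cells. In sinusoidal and metaphyseal endothelial cells Fn1 was not above free RNA in either library.

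**Figure D1:**
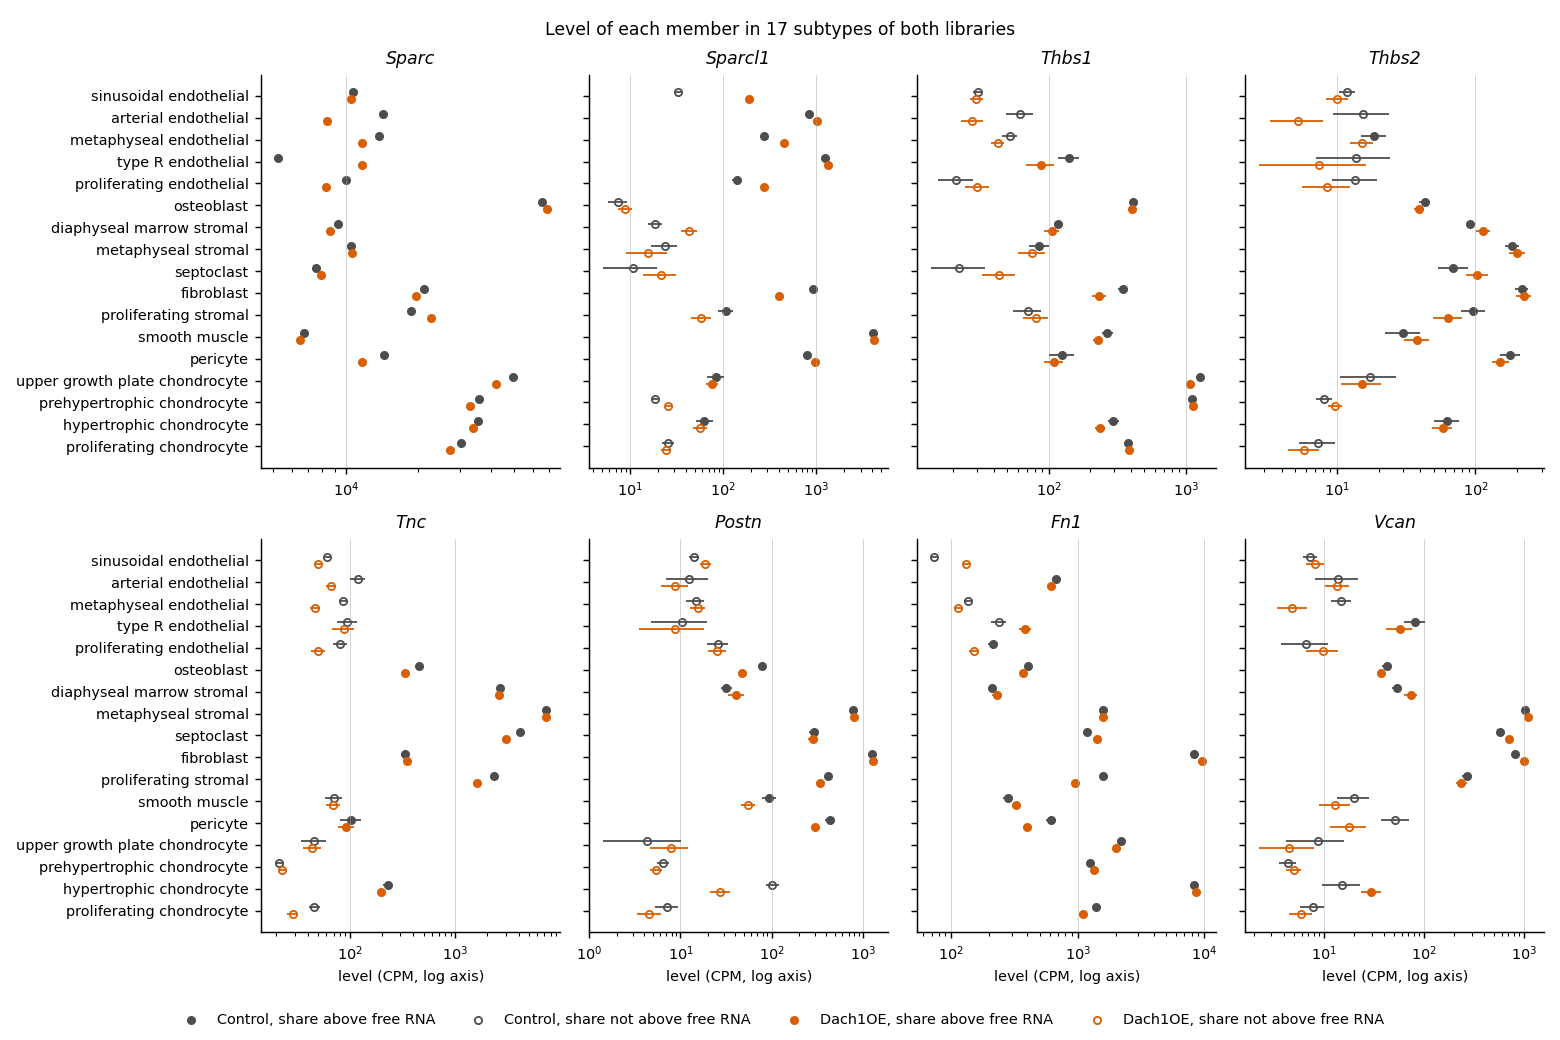
Level of each of the 8 members (CPM, log axis, 1 panel per gene with its own axis) in 17 subtypes of Control (grey) and Dach1OE (orange), with 95% counting intervals. Open points mark subtypes whose share of cells with a UMI was not above free RNA: Sparc is filled in all 17, Tnc in 8, and Sparcl1 in sinusoidal cells is open in Control at 32.6 CPM and filled in Dach1OE at 189.5 CPM.

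The profiles were alike between the libraries. Over the 17 subtypes the Pearson correlation of log2 levels between Control and Dach1OE lay between 0.93 for Sparc and 0.99 for Tnc. Among the members, Thbs2 and Postn were most alike, with 0.92 over 21 subtypes of Control and 0.91 over 22 of Dach1OE, then Postn and Vcan (0.86 and 0.85) and Tnc and Vcan (0.83 and 0.87). Added to the 17 subtypes here were erythroid-like, myeloid-like, basophil-like and megakaryocyte-like cells, and in Dach1OE proliferating mural cells. The same subtypes served for the most alike genes below. The points of such a correlation share a library and its depth, and subtypes of a class share cells of like kind. Of 7650 other genes that reached 50 CPM in some subtype and were no gate markers, Serpinh1, a collagen chaperone, was most like Sparc (0.93 and 0.92), followed by Rftn2. For Sparcl1 these were Dusp8 (0.90 and 0.84) and Eln, the gene of elastin (0.90 and 0.94). Thbs1 was closest to Egr1 (0.82 and 0.77), an immediate early gene, and to Neat1 (0.78 and 0.66). Col3a1, the gene of type III collagen, and Gas1 were the 2 genes most like both Thbs2 (0.94 and 0.93, 0.94 and 0.96) and Postn (0.94 and 0.95, 0.89 and 0.94). Tnc was closest to Cdh11 (0.97 and 0.97), the cadherin of mesenchymal cells, and Ackr4 (0.97 and 0.95). Enpp2 (0.88 and 0.91) and Ccdc80 (0.87 and 0.83) were most like Fn1, and Gas1 (0.89 and 0.83) and Dkk3 (0.89 and 0.83) most like Vcan.

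The promoters of Thbs2, Tnc, Postn and Vcan, the members with the most similar profiles, follow, so that their sequence can be set beside that profile. Each line holds the 250 bases before the start of transcription from RefSeq on GRCm38.p6, written 5′ to 3′ on the strand of the gene, and none of the windows touched an annotated exon. Capitals mark matches on either strand to the TATA box (TATAAA), the CCAAT box, the GC box (GGGCGG), the core letters of RUNX sites (TGTGGT) and those of TEAD sites (GGAATG).
Thbs2 (chr17:14694263-14694512, minus strand): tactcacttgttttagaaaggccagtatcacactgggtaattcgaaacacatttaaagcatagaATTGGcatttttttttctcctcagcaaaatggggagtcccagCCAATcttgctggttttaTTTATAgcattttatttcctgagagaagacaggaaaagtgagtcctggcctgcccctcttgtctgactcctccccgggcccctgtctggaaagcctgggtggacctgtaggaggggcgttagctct
Tnc (chr4:64047016-64047265, minus strand): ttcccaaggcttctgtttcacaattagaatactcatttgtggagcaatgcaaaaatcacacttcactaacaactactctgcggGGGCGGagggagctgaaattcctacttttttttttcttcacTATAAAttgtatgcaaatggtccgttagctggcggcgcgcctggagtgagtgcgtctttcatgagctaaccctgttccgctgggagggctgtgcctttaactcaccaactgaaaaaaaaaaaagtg
Postn (chr3:54360857-54361106, plus strand): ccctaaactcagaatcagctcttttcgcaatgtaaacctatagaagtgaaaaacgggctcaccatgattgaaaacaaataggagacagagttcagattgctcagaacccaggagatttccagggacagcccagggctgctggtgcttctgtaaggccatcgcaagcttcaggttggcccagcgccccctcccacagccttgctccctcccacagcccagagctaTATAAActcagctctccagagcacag
Vcan (chr13:89742513-89742762, minus strand): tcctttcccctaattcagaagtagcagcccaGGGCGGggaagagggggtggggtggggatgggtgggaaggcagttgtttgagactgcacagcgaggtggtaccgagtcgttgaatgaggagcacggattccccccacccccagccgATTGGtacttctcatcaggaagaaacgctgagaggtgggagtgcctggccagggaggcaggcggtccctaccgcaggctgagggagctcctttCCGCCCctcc

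TATAAA was found in the windows of Thbs2, Tnc and Postn, in Postn at position -26 and in Thbs2 and Tnc at position -126, counted back from the start. Of 32851 promoter windows of the same length, 12.4% held it. CCAAT, found in 33.8% of all windows, lay in those of Thbs2 and Vcan. GGGCGG, found in 32.7%, lay in those of Tnc and Vcan. Neither TGTGGT nor GGAATG was in any of the 4 windows (14.0% and 12.6% of all). The GC content was 46.8% for Thbs2, 44.8% for Tnc, 52.0% for Postn and 62.4% for Vcan, with a median of 52.4% over all windows. No motif was thus shared by all 4. By GENCODE vM21 on GRCm38 the genes lie at chr17:14665500-14694235 (Thbs2), chr4:63959785-64047015 (Tnc), chr3:54361109-54391037 (Postn) and chr13:89655312-89742509 (Vcan), and the others at chr11:55394500-55423183 (Sparc), chr5:104079111-104113733 (Sparcl1), chr2:118111876-118127133 (Thbs1) and chr1:71585520-71653200 (Fn1). Genes on the other strand overlap Sparcl1 (Gm26703), Thbs1 (Gm29233), Tnc (8030451A03Rik), Fn1 (Apol7d) and Vcan (Gm16318 and Gm4117). Intronic reads were counted and use of strand is not given in the sources used here, so reads of these pairs cannot be told apart.

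The comparison of the genotypes asks how Dach1 overexpression in the endothelium goes with the matricellular genes of each class. It was not confined to capillary subtypes. In Dach1OE, Dach1 stood at 229 CPM in arterial, 194 CPM in sinusoidal, 175 CPM in metaphyseal, 167 CPM in type R and 157 CPM in proliferating endothelial cells. Genes were counted as higher or lower at 1.5-fold or more, among genes with at least 100 UMIs over both libraries in the class, and all 8 members qualified in each of the 4 classes. In endothelial cells 2 members were higher in Dach1OE, Sparcl1 and Fn1, where 6.64% of all 12675 genes were higher, and 0 members were lower, where 5.51% were. In stromal cells 0 members were higher (1.16% of 12277 genes) and 1, Sparcl1, was lower (9.38%). In mural cells 0 were higher (2.79% of 7922 genes) and 1, Vcan, was lower (2.18%). In chondrocytes 0 were higher (1.07% of 13307 genes) and 1, Postn, was lower (3.12%). The median log2 ratio of the members was -0.13, -0.08, -0.21 and -0.00 in these classes, and that of all genes 0.04, -0.18, 0.04 and -0.00. Stromal ratios below are to be read against the shift of all genes of -0.18.

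**Figure D2:**
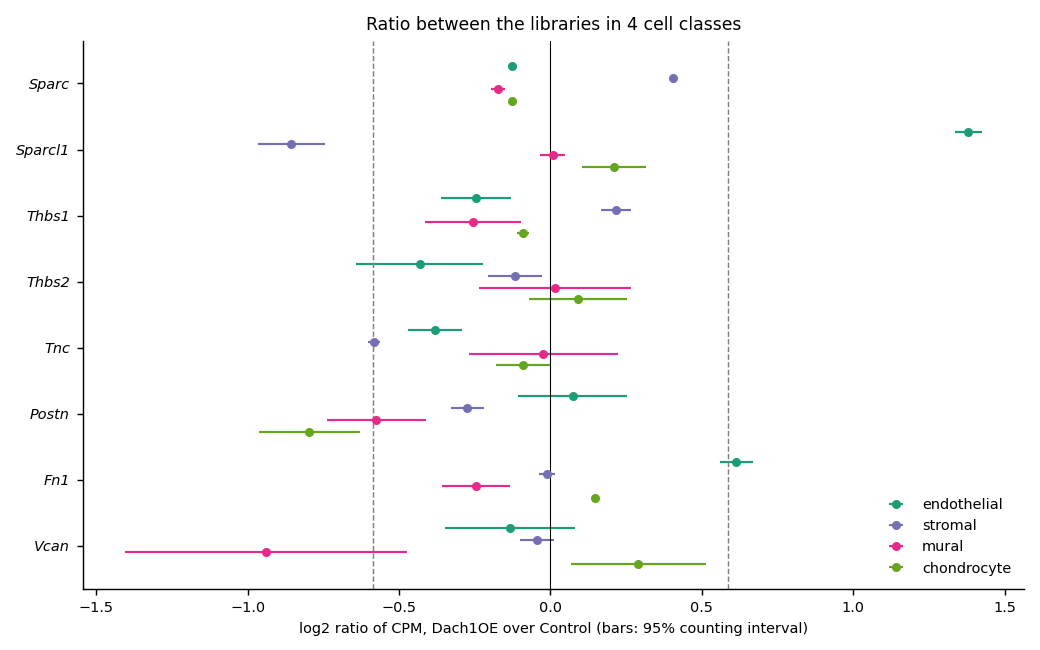
Log2 ratio of CPM, Dach1OE over Control, of each member in endothelial, stromal, mural and chondrocyte cells, with bars for the 95% counting interval and dashed lines at 1.5-fold in each direction. Sparcl1 lies at 1.38 in endothelial and at -0.86 in stromal cells, and most other points lie between the dashed lines.

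In endothelial cells Sparcl1 stood at 172 CPM (168 to 177) in Control and 448 CPM (441 to 456) in Dach1OE, a log2 ratio of 1.38 (1.33 to 1.42). On the log2 scale the difference was largest in sinusoidal cells, the vessels of the marrow. There Sparcl1 gave 32.6 CPM (30.1 to 35.2), with a UMI in 2.62% of thinned cells, a share not above free RNA, in Control, and 189.5 CPM (182 to 198) in Dach1OE, with a UMI in 14.5%, which was above it. The log2 ratio was 2.54 (2.41 to 2.67). The markers that set sinusoidal cells apart differed between the libraries as well: Cxadr stood at 126 and 50.5 CPM, Adgrg6 at 267 and 126 CPM and Madcam1 at 15.3 and 149.6 CPM, whereas Stab2 stood at 1156 and 987 CPM and Gpr182 at 635 and 624 CPM, and their part in the ratio was not tested. In proliferating endothelial cells it was 0.95 (0.77 to 1.14) and in metaphyseal cells 0.69 (0.60 to 0.78). In arterial cells it was 0.27 (0.18 to 0.37) and in type R cells 0.10 (-0.02 to 0.22), so the subtypes with the highest level in Control showed the smallest ratios. In CPM the rise was not largest in sinusoidal cells. Metaphyseal cells (277 and 446 CPM), arterial cells (843 and 1019 CPM) and endothelial cells outside the subtypes (305 and 555 CPM) rose by more. Type R cells (1248 and 1338 CPM) and proliferating cells (141 and 273 CPM) rose by less. Sinusoidal cells were 58.4% of endothelial cells in Control and 37.9% in Dach1OE, and arterial cells 4.13% and 12.5%, so the class value also carries the make-up of the class. With every subtype given the same weight the class log2 ratio was 0.42. Summed markers of mural cells, where Sparcl1 is highest, gave 355 and 482 CPM in endothelial cells, with 0 of the 8 at 0 in both. Their part in the result was not tested.

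Clusters built without the members held endothelial cells of the 2 libraries in unequal parts. The libraries were not integrated before clustering, whereas the paper integrated them, so differences between libraries of any kind can part these clusters. The largest held 5211 cells of Control and 951 of Dach1OE, and others held 2569 and 1267, 6 and 3502, 442 and 1362, and 62 and 1533. Of the smaller ones, 2 were filled more evenly, with 484 and 485, and 244 and 400, and the smallest held 86 and 32. Within Dach1OE, sinusoidal cells with a Dach1 UMI held 232 CPM of Sparcl1 (219 to 246) and those without held 156.5 CPM (147 to 166), with median depths of 3368 and 2514 UMIs. Both were above the 32.6 CPM of Control. At this depth a cell without a Dach1 UMI may still express the transgene. Metaphyseal cells gave 513 and 398 CPM in the same split, and arterial cells 1066 and 964 CPM. Fn1, the other member past the limit in endothelial cells, went the other way in this split. It gave 188 CPM in endothelial cells with a Dach1 UMI, at a median depth of 3462 UMIs, and 225 CPM in those without, at 2518 UMIs. Arterial cells gave 581 and 660 CPM. Sinusoidal cells gave 106 and 151 CPM and metaphyseal cells 82.5 and 136 CPM, 2 subtypes in which Fn1 was not above free RNA. The part of depth and free RNA in this split was not tested.

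Fn1 in endothelial cells stood at 136 CPM (132 to 140.0) and 208 CPM (203 to 213), a log2 ratio of 0.61 (0.56 to 0.67). It did not run through the subtypes. Arterial cells, which express it most, gave 671 and 618 CPM, metaphyseal cells 136 and 113 CPM and proliferating cells 215 and 152 CPM, all lower in Dach1OE. Metaphyseal shares were not above free RNA, and 10 metaphyseal cells held 60.7% and 44.3% of the Fn1 UMIs of that subtype. In proliferating cells 10 cells held 49.8% and 44.1%, and in arterial cells 18.7% and 9.34%. Sinusoidal cells gave 72.8 and 131 CPM with shares not above free RNA, and 10 cells held 27.7% and 43.8% of these UMIs. Type R cells gave 238 and 384 CPM, where 10 cells held 79.3% and 61.4%. Arterial cells were 4.13% and 12.5% of endothelial cells. They gave 875 of the 4404 endothelial Fn1 UMIs in Control and 2579 of 6726 in Dach1OE, so the class value also carries the make-up of the class. With every subtype given the same weight the log2 ratio was 0.04, and with another scaling (TMM) it was 0.58, just under the limit. The share of thinned endothelial cells with an Fn1 UMI was 7.35% in Control, not above free RNA, and 11.9% in Dach1OE, above it. Summed markers of stromal cells gave 7834 and 10081 CPM in endothelial cells, and those of chondrocytes 1066 and 1402 CPM. Their part in the Fn1 ratio was not tested.

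**Figure D3:**
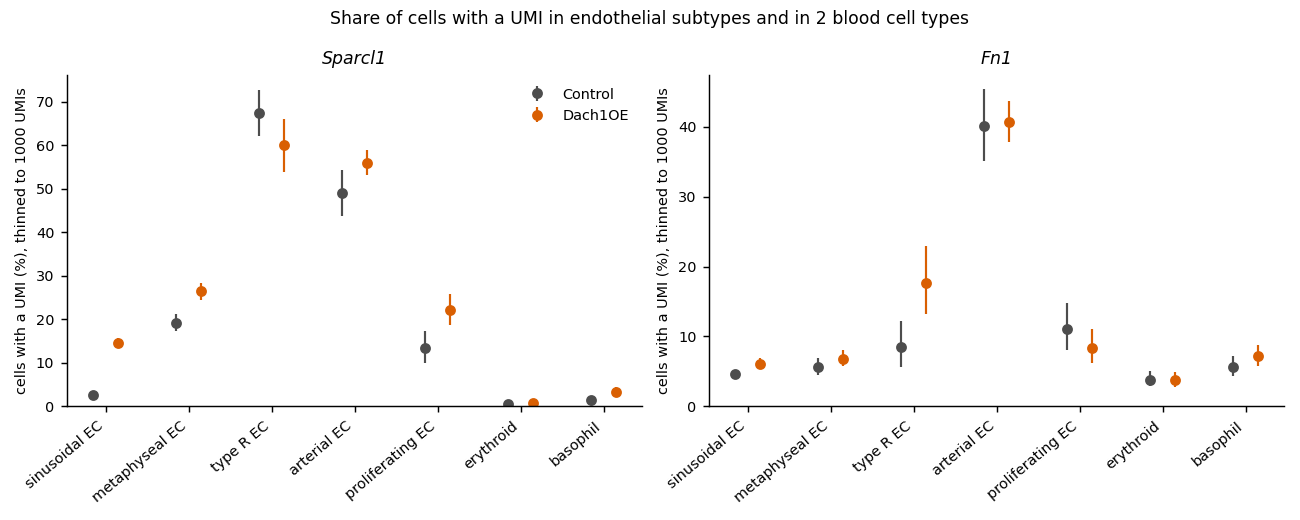
Share of cells with a UMI of Sparcl1 (left) or Fn1 (right), each cell thinned to 1000 UMIs, in 5 endothelial subtypes and in erythroid-like and basophil-like cells of Control (grey) and Dach1OE (orange), with 95% Clopper-Pearson intervals. Sparcl1 stands at 2.62% and 14.5% in sinusoidal cells and above 40% in type R and arterial cells, whereas Fn1 stands apart from the blood cells in arterial cells, at 40.2% and 40.7%.

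Sparc in endothelial cells differed little as a class (11333 and 10386 CPM, log2 ratio -0.13) but in opposite directions within it. Type R cells held 5230.0 CPM (5079 to 5384) in Control and 11704 CPM (11468 to 11943) in Dach1OE, 2.24 times as much (2.16 to 2.32), a log2 ratio of 1.16. The median cell held 39.1 and 91.0 UMIs of Sparc per 10000. Arterial cells held 14309 CPM (14105 to 14516) and 8388 CPM (8300.0 to 8476), a log2 ratio of -0.77 (-0.80 to -0.74), with medians of 131.9 and 62.7. The 381 and 1175 arterial cells differed in markers too, with Gja4 at 875 and 1657 CPM, Gja5 at 464 and 867 CPM and Bmx at 105 and 30.7 CPM, and with the endothelial markers Emcn at 269 and 149 CPM and Cldn5 at 1106 and 1719 CPM. Control thus had its highest endothelial level of Sparc in arterial cells and its lowest in type R cells, and in Dach1OE type R cells stood among the highest. The type R gate, with 324 and 265 cells, did not pick cells of equal make-up: of its markers, Fmo2 stood at 468 and 197 CPM and Aqp7 at 6.88 and 94.8 CPM, and the endothelial marker Cldn5 at 83.7 and 306 CPM. The part of these markers in the differences of Sparc was not tested.

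Other members were low in endothelial cells and were not above free RNA in most subtypes. Tnc gave a log2 ratio of -0.38 (-0.47 to -0.29) and Thbs2 of -0.43 (-0.64 to -0.22). For Thbs1 it was -0.25 (-0.36 to -0.13), for Vcan -0.13 (-0.35 to 0.08) and for Postn 0.07 (-0.11 to 0.25). The intervals of Vcan and Postn include 0. The other ratios changed sign under some of the 12 alternatives. Tnc ran between -0.69 and 0.36, Thbs2 between -0.83 and 0.19 and Thbs1 between -0.56 and 0.01.

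In stromal cells Sparcl1 was lower in Dach1OE, with 78.7 CPM (75.2 to 82.2) and 43.5 CPM (40.8 to 46.2), a log2 ratio of -0.86 (-0.97 to -0.75). Its share of thinned cells with a UMI was above free RNA in Control (4.17%) and not in Dach1OE (3.52%, against 3.37% of basophil-like cells). Fibroblasts gave 1392 of its 1953 stromal UMIs in Control and 485 of 1005 in Dach1OE. Fibroblasts held 919.9 CPM (872 to 969.5) and 403 CPM (368 to 441), a log2 ratio of -1.19 (-1.34 to -1.04), with a UMI in 35.9% and 19.7% of thinned cells. The tendon markers of this mixed periosteal and tendon subtype were lower with it, Tnmd at 1019.7 and 607 CPM, Scx at 95.8 and 56.6 CPM and Fmod at 1494 and 1092 CPM, and Clec3b (1891 and 2438 CPM) and Pi16 (57.5 and 95.6 CPM) were higher, so a change within these cells and a change in their make-up cannot be told apart. In these cells 10 cells held 21.6% and 35.5% of the Sparcl1 UMIs. Diaphyseal marrow stromal cells went the other way, from 18.6 to 43.5 CPM, with shares not above free RNA. Mural markers summed to 392 and 360 CPM in stromal cells, with 0 of the 8 at 0. Their part was not tested.

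Tnc and Sparc also differed in stromal cells, below the limit of 1.5-fold, and the make-up of the class differed with them. Osteoblasts were 27.3% of stromal cells in Control and 44.3% in Dach1OE, and diaphyseal marrow stromal cells 39.6% and 19.0%. Tnc over all stromal cells had a log2 ratio of -0.58 (-0.60 to -0.56). Within metaphyseal stromal cells, where it is highest, the ratio was -0.00 (-0.05 to 0.04), and within diaphyseal marrow stromal cells -0.01 (-0.05 to 0.04). It was -0.47 (-0.53 to -0.41) in osteoblasts and -0.45 (-0.52 to -0.38) in septoclasts. Sparc over all stromal cells had a log2 ratio of 0.41 (0.40 to 0.41), and only 0.07 (0.06 to 0.07) within osteoblasts and -0.11 (-0.13 to -0.09) within diaphyseal marrow stromal cells. With every subtype given the same weight the log2 ratios were -0.18 for Tnc and 0.07 for Sparc. Shares of subtypes in a library depend on digestion and depletion as well.

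**Figure D4:**
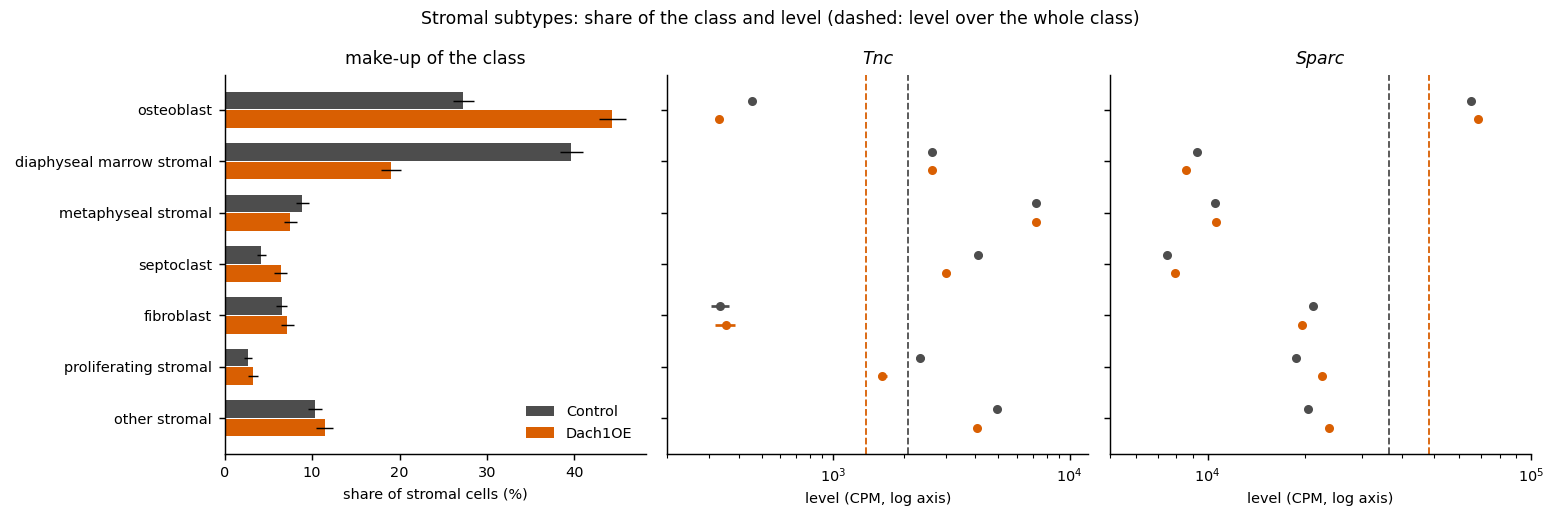
Share of stromal cells in each subtype (left, bars with 95% Clopper-Pearson intervals) and level of Tnc (middle) and Sparc (right) in the same subtypes (CPM, log axis, 95% counting intervals) for Control (grey) and Dach1OE (orange). Dashed lines give the level over the whole class, which for Tnc is 2071 and 1383 CPM. Metaphyseal and diaphyseal stromal cells lie at the same level of Tnc in both libraries, and osteoblasts and septoclasts lie lower in Dach1OE.

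Among the remaining stromal members, Postn gave a log2 ratio of -0.27 (-0.33 to -0.22), Thbs1 of 0.22 (0.17 to 0.27) and Thbs2 of -0.12 (-0.21 to -0.03). Each of these changed sign under some of the 12 alternatives. Postn ran between -1.03 and 0.21, Thbs1 between -0.08 and 0.39 and Thbs2 between -0.34 and 0.15. Fn1 (-0.01, -0.04 to 0.01) and Vcan (-0.04, -0.10 to 0.01) had intervals that include 0. Postn in osteoblasts stood at 77.6 and 46.8 CPM, a log2 ratio of -0.73 (-0.88 to -0.58), whereas in fibroblasts (0.03, -0.06 to 0.13) and metaphyseal stromal cells (0.04, -0.08 to 0.17) the intervals include 0. The value of fibroblasts pools opposite ones, 0.65 in cells with Xist UMIs and -0.89 in cells with Y-linked UMIs. Vcan in diaphyseal marrow stromal cells gave 53.6 and 74.1 CPM, a log2 ratio of 0.47 (0.20 to 0.73).

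Mural cells had the fewest UMIs. Vcan stood at 31.6 CPM (25.2 to 39.1) and 16.5 CPM (13.0 to 20.6), a log2 ratio of -0.94 (-1.40 to -0.48) on 85 and 76 UMIs, and in neither library was its share above free RNA. In pericytes 40 and 25 UMIs gave 51.9 and 17.8 CPM. Postn, which is above free RNA in pericytes, had a log2 ratio of -0.58 (-0.74 to -0.41) over mural cells and of -0.52 (-0.73 to -0.31) in pericytes. Sparcl1, which had its highest level of the 4 classes in these cells, had log2 ratios of 0.01 (-0.03 to 0.05) over the class and of 0.03 (-0.02 to 0.07) in smooth muscle cells. Log2 ratios of Fn1 (-0.25), Thbs1 (-0.26) and Sparc (-0.17) lay below 0 beyond counting error, and those of Tnc (-0.02, -0.27 to 0.22) and Thbs2 (0.01, -0.24 to 0.27) did not. Fn1 parted by subtype, with 280.2 and 327 CPM in smooth muscle cells and 619 and 400.0 CPM in pericytes. Of its UMIs, 10 cells held 35.2% and 24.1% over mural cells, 40.2% and 34.2% in smooth muscle cells and 55.1% and 34.2% in pericytes. Its class ratio turned with classes taken from clusters (0.08), in cells with Y-linked UMIs (0.06) and without cells near the gate limit (0.05). Sparc turned in cells with Y-linked UMIs (0.17).

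In chondrocytes Postn stood at 15.6 CPM (14.5 to 16.9) and 9.0 CPM (8.25 to 9.80), a log2 ratio of -0.80 (-0.96 to -0.63), with shares of 0.882% and 0.772% of thinned cells that were not above free RNA. The direction turned with classes taken from clusters (0.44), and in cells with Y-linked UMIs the ratio was -0.56, under the limit. Here 10 cells held 54.8% and 38.5% of the Postn UMIs. In hypertrophic chondrocytes, where it gave 102 and 27.3 CPM, 10 cells held 97.3% and 79.1%. The abundant members of cartilage differed little: Thbs1 by -0.09 (-0.11 to -0.07), Fn1 by 0.15 (0.14 to 0.16) and Sparc by -0.13 on the log2 scale. Vcan gave 0.29 (0.07 to 0.51) and Sparcl1 0.21 (0.10 to 0.32), both with thinned shares not above free RNA over the class. Unthinned UMIs per chondrocyte were 2.83 and 2.59 times the higher of the reference blood cell types for Sparcl1, and 2.15 and 1.19 times for Vcan. Chondrocytes had median depths of 10390 and 9888 UMIs.

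Since each library pooled mice of both sexes, cells could be split by UMIs of Xist, expressed in female cells, or of 4 Y-linked genes, which gives 1 ratio within each sex. Of endothelial cells 56.5% and 54.7% could be split so, of stromal cells 57.6% and 54.8%, of mural cells 39.5% and 38.0% and of chondrocytes 75.6% and 71.8%. Among the cells split, Xist cells were 56.5% and 56.8% of endothelial, 56.8% and 59.2% of mural, 68.9% and 58.0% of stromal cells and 63.4% and 49.3% of chondrocytes, so pooled ratios in stromal cells and chondrocytes mix the sexes in unequal parts. The log2 ratio of Sparcl1 in sinusoidal cells was 2.23 (2.01 to 2.45) in Xist cells and 2.69 (2.46 to 2.93) in Y cells, and over all endothelial cells 1.18 and 1.82. Sparc in type R cells gave 1.31 and 1.22, and in arterial cells -0.97 and -0.59. Fn1 in endothelial cells gave 0.62 and 0.90. These ratios had the same sign in both sexes, as did Tnc in stromal cells (-0.58 and -0.52) and Sparcl1 in stromal cells (-0.42 and -1.51). Postn in stromal cells was higher in Dach1OE in Xist cells, 0.21 (0.13 to 0.30), and lower in Y cells, -1.03 (-1.15 to -0.91). In fibroblasts, where its level is highest (1909 of 6412 stromal Postn UMIs in Control and 1553 of 4937 in Dach1OE), these ratios were 0.65 (0.50 to 0.80) and -0.89 (-1.12 to -0.66). Vcan in mural cells also parted, with -2.69 (-3.94 to -1.60) on 34 and 9 UMIs and 0.41 (-0.81 to 1.74) on 9 and 19. Sparc in mural cells gave -0.46 and 0.17, and Sparcl1 there 0.24 and -0.24. Sex, litter and the individual mouse cannot be told apart in this split, and the cells of both sexes come from the same 2 libraries. With 2 mice per library, each sex of a library may stand for 1 mouse.

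**Figure D5:**
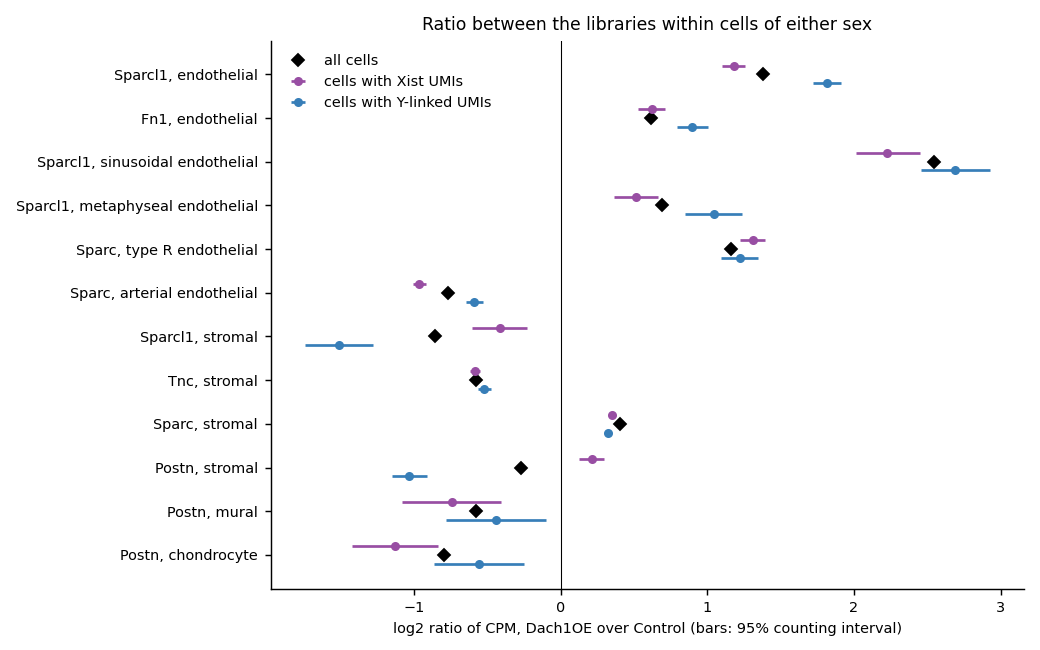
Log2 ratio of CPM, Dach1OE over Control, over all cells (diamonds), cells with Xist UMIs (purple) and cells with Y-linked UMIs (blue), for 12 pairs of a member and a class or subtype, with 95% counting intervals. Sparcl1 in sinusoidal cells lies above 2 in both sexes, and Postn in stromal cells lies at 0.21 and -1.03.

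Related genes were described from 3 lists, with counts at 1.5-fold and the members left out. Of other matricellular genes (thrombospondins, CCN proteins, tenascins, SPARC-like proteins and others), 1 was higher and 3 were lower of 17 measured in endothelial cells, 0 and 6 of 17 in stromal cells, 1 and 5 of 12 in mural cells and 0 and 3 of 19 in chondrocytes. Over all genes tested, 6.64% were higher and 5.51% lower in endothelial cells, 1.16% and 9.38% in stromal cells, 2.79% and 2.18% in mural cells and 1.07% and 3.12% in chondrocytes. The median log2 ratios of the list were 0.03, -0.29, -0.39 and -0.10, against 0.04, -0.18, 0.04 and -0.00 over all genes. Of cell surface receptors for these proteins, 1 and 1 of 12, 0 and 3 of 13, 1 and 2 of 12 and 0 and 1 of 13 passed, and of partners and proteases of versican and fibronectin 1 and 2 of 8, 0 and 4 of 11, 0 and 2 of 7 and 0 and 3 of 11. Medians of the receptors were -0.05, -0.20, -0.17 and -0.03, and those of the partners and proteases -0.00, -0.51, -0.13 and -0.22. Thbs4, a thrombospondin of tendon and muscle, was lower at 2-fold or more in endothelial cells (27.6 and 12 CPM), mural cells (48.7 and 3.90 CPM) and chondrocytes (24.3 and 9.79 CPM). The mural value rests on 131 and 18 UMIs. Cells that should lack Thbs4 held 4.96 and 2.68 CPM of it (erythroid-like) and 11.98 and 12.2 CPM (basophil-like), so in Dach1OE none of the 3 values lay above both. Cd36, a scavenger receptor that binds thrombospondins, stood at 833 and 247 CPM in endothelial cells, and was lower by 2-fold or more in stromal cells (11.7 and 4.97 CPM) and chondrocytes (13.7 and 4.90 CPM), all below its 22.7 and 14.1 CPM in erythroid-like cells and 33.8 and 7.59 CPM in basophil-like cells. In mural cells Ctgf (416 and 174 CPM), a CCN protein, and Tnxb (32.0 and 14.97 CPM), the tenascin of loose connective tissue, were lower as well, on 1120 and 800 UMIs of Ctgf and 86 and 69 UMIs of Tnxb. No gene of the lists was higher at 2-fold or more in any of the 4 classes.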

How the data were processed

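The deposited tables hold, for each cell and gene above 0, counts of reads, of raw UMIs and of UMIs after recursive substitution error correction (RSEC). Version 1.11 of the BD Rhapsody WTA Analysis Pipeline produced them, per the file headers, from reads placed on GRCm38 under the GENCODE vM19 annotation, and reads in introns entered the counts. The methods name another pipeline version. RSEC-adjusted UMIs were used as deposited, with no normalization before the sums, and the depth of each library is given above as its median UMIs per cell.

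A cell took the class whose markers it held in the largest share, if that was at least 35% and led by at least 20 points, and a subtype by the level of further markers. Cells with at least 3 cycling markers were called proliferating. Doublets marked by Scrublet (6.65% and 6.86% of cells) were kept, and left out in an alternative. Clusters (Leiden) were built without the members and served only as an alternative. Python 3.11.15 was used with numpy 2.4.6, scipy 1.17.1, pandas 2.3.3, scanpy 1.11.5, leidenalg 0.10.2, scikit-learn 1.9.0 and matplotlib 3.10.9. The ratios and counts past the limit were run on simulated class sums, drawn as independent Poisson counts. Such counts leave out the spread between cells, so this does not test the intervals where few cells hold most UMIs.

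All 8 members were named in each class. Besides them, the 2 genes most alike to each member by Pearson correlation of log2(CPM + 10) in Control subtypes of at least 50 cells (blood subtypes included), and up to 3 genes per direction and class of the lists past 2-fold, were named. The members and lists were chosen with earlier results of these data known. Alternatives covered scaling, raw UMIs, filters on cells, the gate, doublets, sex, weights of subtypes and cells, and the limits on UMIs and fold. The alternative without cells near the gate limit was chosen after seeing the data. Counts of cells shared by barcode were not removed. RefSeq promoters were matched by symbol for 5 of the 8 members. Sparcl1, Thbs1 and Fn1 had no entry.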

Additional observations from a re-analysis of the deposited data

Results flagged for a closer look

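Sparcl1 had log2 ratios of opposite sign in 2 classes, 1.38 in endothelial cells (higher in Dach1OE) and -0.86 in stromal cells (lower in Dach1OE). The stromal share of cells with a UMI was above free RNA in Control and not in Dach1OE. The difference between the classes was not tested, since there was 1 library per genotype. Both signs were the same in cells with Xist UMIs and in cells with Y-linked UMIs. The endothelial log2 ratio was largest in sinusoidal cells, and fibroblasts gave 1392 of the 1953 stromal UMIs in Control and 485 of 1005 in Dach1OE. In stromal cells the ratio ran between -1.51 and -0.42 over the 12 alternatives, and in endothelial cells between 0.42 and 1.82.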

How the results depend on the processing

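Of 381 ratios of a member in a class under 12 alternatives, 294 kept their direction and their side of the 1.5-fold limit, 8 fell under the limit, 21 passed it, and 57 changed sign from a main value under the limit, among them Tnc in endothelial cells (0.36 with classes from clusters), Postn in stromal cells (0.21 in Xist cells) and Sparc in mural cells (0.17 in Y cells). A member past the limit turned in 1 case, Postn in chondrocytes, 0.44 with classes taken from clusters. The number of endothelial members higher in Dach1OE was 1 with TMM scaling or a limit of 2-fold and 0 with subtypes weighted equally. The number of endothelial members lower was 1 with classes from clusters, with subtypes or cells weighted equally or without cells near the gate limit, and 2 in Xist cells. The number of stromal members lower was 2 with raw UMIs, with 1000 to 6000 genes, with under 10% mitochondrial UMIs, without doublets and in Y cells, where Tnc or, in Y cells, Postn joined Sparcl1. It was 0 in Xist cells, with cells weighted equally or with a limit of 2-fold. The number of mural members lower was 2 with TMM scaling, raw UMIs, under 10% mitochondrial UMIs, Xist cells or subtypes or cells weighted equally. It was 0 with classes from clusters or a limit of 2-fold. It was also 0 in Y cells and without cells near the gate limit. In mural cells Vcan did not qualify for the count in Xist cells, in Y cells or without cells near the gate limit. The counts of these settings therefore do not show whether Vcan was still lower there. The number of mural members higher was 1 with under 10% mitochondrial UMIs. The number of chondrocyte members lower was 0 with classes from clusters, Y cells or a limit of 2-fold. The causes were not tested. Shares of cells with a UMI moved without thinning and at 2 UMIs, as these settings are built to do. No paired analysis was possible because there was 1 library per genotype, and for the same reason no replicate could be left out. Depth limits Vcan in mural cells, with 85 and 76 UMIs, most.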
